A study of Mus musculus with 27 samples.

Results

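Mitochondrial ribosomal protein genes were followed in mouse liver across 2 genotypes and 2 diets. Members were the rows of the deposited count table whose symbol starts with *Mrpl* or *Mrps* followed by a digit, without pseudogenes, and with at least 10 counts in 6 or more libraries. All 78 matching symbols passed, out of 23191 named symbols, and all 78 also passed the low-count filter in every comparison. The groups were littermate control mice on chow (n = 7), HGFAC-KO mice on chow (n = 6), littermate controls on a diet high in fat and sucrose (HF/HS, n = 7) and HGFAC-KO mice on HF/HS diet (n = 7). All were C57BL/6J males aged 8 weeks at the start of feeding. HGFAC-KO mice carried a whole-body deletion made by CRISPR in *Hgfac*, which encodes a secreted protease that activates hepatocyte growth factor, so effects of its loss in the liver and in other organs cannot be told apart. Livers were measured as bulk tissue, in which fewer cells of a type and less RNA per cell cannot be told apart.

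The mitochondrial ribosome translates the few mRNAs that mitochondrial DNA encodes, all of them for core subunits of the respiratory chain and ATP synthase. Its RNAs come from mitochondrial DNA, whereas its proteins are encoded in the nucleus, translated in the cytosol and imported. Some of these proteins have counterparts in bacterial ribosomes and others are found only in mitochondria. By current naming, 51 of the 78 genes encode proteins of the large subunit and 26 of the small subunit, and the names do not always tell: *Mrps18a* and *Mrps30* encode large subunit proteins. The remaining member, *Mrps36*, was once listed as a ribosomal protein, but its product (also called KGD4) belongs to the 2-oxoglutarate dehydrogenase complex of the citric acid cycle. It was kept because the symbol rule includes it.

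Members lie on 17 chromosomes, at most 11 of them on one. In the GENCODE annotation of GRCm38, 33 of the 78 (42.3%) have a protein-coding neighbour on the opposite strand whose start lies within 1000 bases, a head-to-head arrangement held by 10.9% of 21951 protein-coding genes. Several of these neighbours serve mitochondria too. *Mrps12* faces *Sars2* (mitochondrial seryl-tRNA synthetase), *Mrpl43* faces *Twnk* (the mitochondrial DNA helicase), *Mrpl36* and *Mrpl47* face the complex I genes *Ndufs6* and *Ndufb5*, and *Mrps11* and *Mrpl46* face each other. Promoters from RefSeq (GRCm38.p6), from 250 bases before to 50 bases after each start, were found for 69 members. They were searched on both strands for cores of 3 factors known to act at such genes: GCATGCGC for NRF1, CCGGAAG for the ETS factors that include GABPA, and AAGATGGC for YY1. The ETS and YY1 cores can share the letters AAG, and the NRF1 core can overlap its own reverse complement. An NRF1 core was in the promoters of 11.6% of the 69 members and of 3.05% of 27025 genes in the same table. The ETS core was in 37.7% against 9.93%, the YY1 core in 17.4% against 3.19%, and any of the 3 in 55.1% against 14.9%. In the bases before the start alone, the YY1 core was in 5.8% of members against 1.83% of all genes, the ETS core in 26.1% against 7.83%, the NRF1 core in 11.6% against 2.56% and any of the 3 in 39.1% against 11.5%, so that 8 of the 12 members with a YY1 core in the whole window had none wholly before the start. A match describes letters and not a bound factor. For neighbours and for cores, the shares over all genes were not limited to genes expressed in liver, whereas all members are expressed there. The next sequences are the 120 bases before the start of 4 members with such cores and of *Mrps36*, which has none of the 3 in its promoter. They run 5′ to 3′ on the gene's strand, with the cores, read on either strand, in capitals.
Mrpl32, chr13:14613038-14613157, minus strand, overlapping NRF1 cores: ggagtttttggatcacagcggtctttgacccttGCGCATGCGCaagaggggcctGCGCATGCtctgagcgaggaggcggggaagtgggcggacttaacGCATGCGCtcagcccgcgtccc
Mrpl22, chr11:58171544-58171663, plus strand, an ETS and an NRF1 core: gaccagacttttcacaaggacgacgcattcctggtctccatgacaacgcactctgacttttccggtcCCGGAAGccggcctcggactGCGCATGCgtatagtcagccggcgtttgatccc
Mrpl34, chr8:71464806-71464925, plus strand, an ETS core: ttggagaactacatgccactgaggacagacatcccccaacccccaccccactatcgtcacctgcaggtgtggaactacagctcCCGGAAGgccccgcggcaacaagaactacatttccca
Mrpl52, chr14:54426789-54426908, plus strand, an ETS core: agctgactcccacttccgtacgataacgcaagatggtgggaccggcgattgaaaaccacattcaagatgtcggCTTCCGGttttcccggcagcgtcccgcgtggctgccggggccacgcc
Mrps36, chr13:100744660-100744779, minus strand, no core: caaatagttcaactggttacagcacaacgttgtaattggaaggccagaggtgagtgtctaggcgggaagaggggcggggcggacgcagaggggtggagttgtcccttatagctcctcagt

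**Figure D1:**
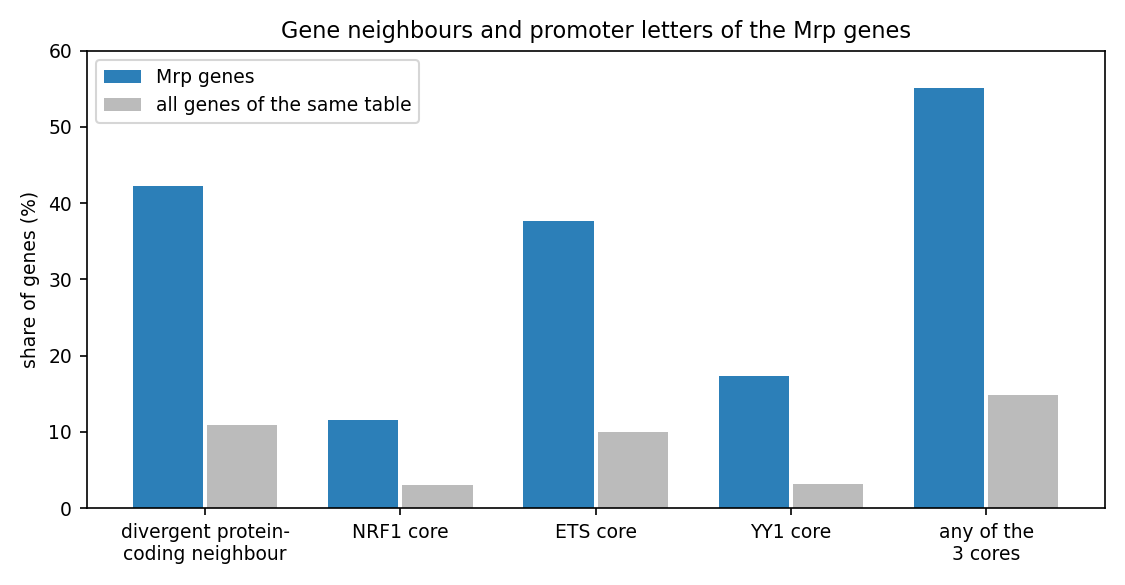
Share of genes (y axis, percent, from 0) with a head-to-head protein-coding neighbour within 1000 bases and with each promoter core (x axis), for the Mrp genes (blue, 78 for neighbours and 69 for promoters) and for all genes of the same table (grey, 21951 and 27025). The share of Mrp genes is the higher one in each pair, 42.3% against 10.9% for neighbours and 55.1% against 14.9% for any core.

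Libraries held between 36056177 and 57298657 counts, of which 4.13% to 12.1% fell on rows without a gene name. *Hgfac* served as the check of the labels. On chow its level in CPM, the count scaled to the named counts of the library after TMM normalization, was 183 to 219 in controls against 65.4 to 84.5 in HGFAC-KO livers (log2 fold change -1.41, adjusted p = 3.05e-08 by edgeR). On HF/HS it was 247 to 296 against 81.8 to 100.7 CPM (log2 fold change -1.56, adjusted p = 1.66e-10 by edgeR), so the genotypes did not overlap on either diet. Adjusted p-values here and below are those of the quasi-likelihood test of edgeR, adjusted over all genes by the Benjamini-Hochberg method. The 10 hepatocyte markers summed to between 82520 and 120700 CPM in a library, 6 markers of pancreas to at most 1.77 CPM and 5 of adipocytes to at most 21.1 CPM.

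Counts on the 78 genes made up 0.225% to 0.278% of each library's named counts, or 88711 to 135321 counts, so each mouse's value rests on many reads. Compared per length, the median member stood at 11.8 CPM per kilobase of merged exons over the 27 mice, and 40 of the 78 lay within 2-fold of that. The range from lowest to highest was 35.6-fold. *Mrpl12*, whose product has been described to bind the mitochondrial RNA polymerase as well, had the highest level at 67.4 CPM per kb, followed by *Mrpl34* (64.0), *Mrps12* (38.1), *Mrps21* (38.0) and *Mrpl18* (37.9). The lowest were *Mrpl33* (1.90), *Mrpl23* (2.41), *Mrps35* (2.58), *Mrpl48* (2.62) and *Mrpl3* (2.83 CPM per kb), the last of which encodes a protein near the peptidyl transferase centre. This order depends on the length used. Over longest transcripts *Mrpl12* and *Mrpl34* stayed first and second, *Mrps12* and *Mrpl18* were at ranks 8 and 9, *Mrpl20* moved from rank 17 to rank 5 (49.8 CPM per kb), and *Mrpl33* had 5.07 CPM per kb. Large subunit genes had a median of 12.9 CPM per kb and small subunit genes of 8.42. Genes with a bacterial counterpart (48) had a median of 12.7 and mitochondria-specific genes (29) of 10.4 CPM per kb. The 3 paralogs of bacterial S18 differed, with *Mrps18b* at 21.3, *Mrps18c* at 17.2 and *Mrps18a*, the large subunit paralog, at 7.89 CPM per kb.

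**Figure D2:**
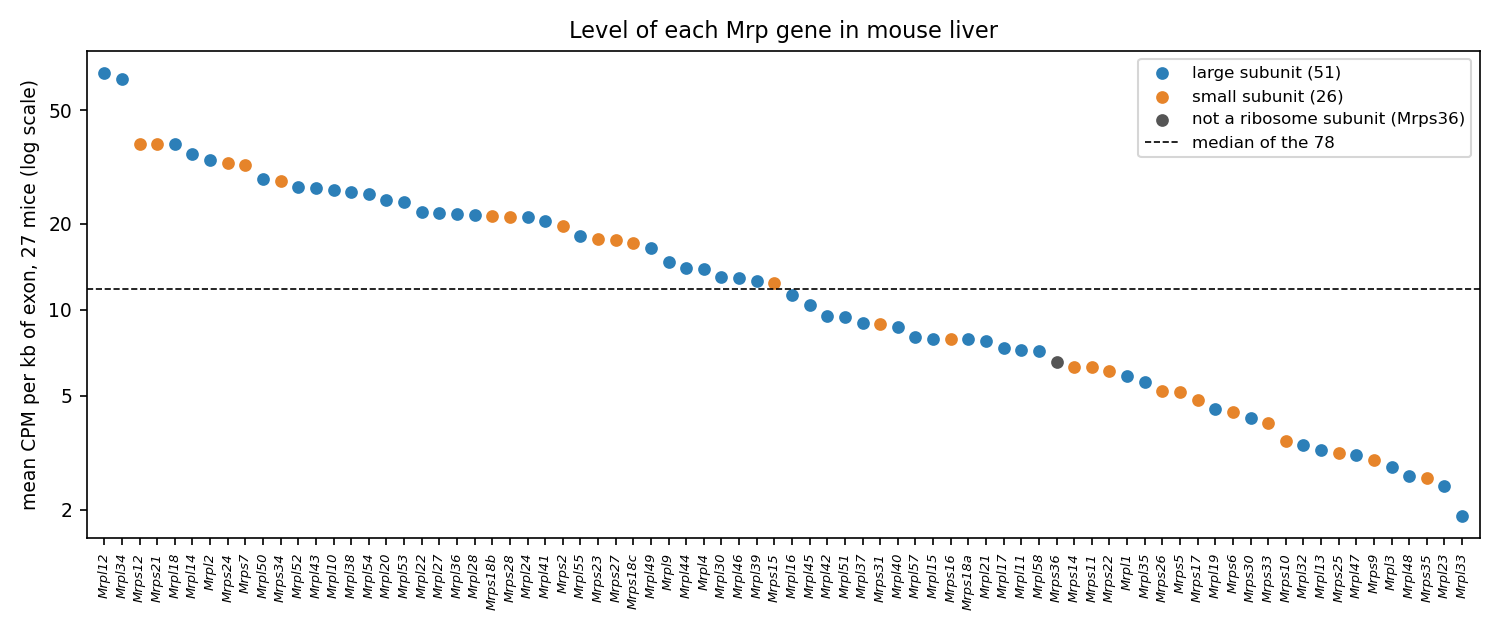
Mean level of each of the 78 genes over the 27 mice (y axis, CPM per kb of merged exons, log scale), ordered from highest to lowest along the x axis and coloured by subunit, with a dashed line at the median of 11.8 CPM per kb. Levels fall from *Mrpl12* at 67.4 to *Mrpl33* at 1.90 CPM per kb, with both subunits spread over the range.

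The members varied little between mice of a group. Their median coefficient of variation within groups was 7.19%, against 12.6% for all genes tested and 9.52% for the tested genes within the members' range of CPM. *Mrpl37* varied least (3.93%), and *Mrps6* (13.3%), *Mrpl23* (12.4%) and *Mrpl14* (10.9%) most. A score per mouse was taken as the mean over the 78 genes of log2 CPM minus the gene's own mean over all mice. It ran from -0.04 to 0.09 in controls on chow (median -0.03), from -0.04 to 0.16 in HGFAC-KO mice on chow (median 0.03), from -0.08 to 0.10 in controls on HF/HS (median -0.03) and from -0.07 to 0.04 in HGFAC-KO mice on HF/HS (median -0.05). The 4 groups overlapped. Control chow replicates 1 and 2 (0.08 and 0.09) and control HF/HS replicates 3 and 4 (0.10 and 0.08) stood high in their groups. In these mice 65 to 67 of the 78 genes were above their median over all mice. The highest scores were those of HGFAC-KO chow replicates 1 (0.16) and 2 (0.12), with 67 and 73 such genes. Fits without both were chosen after seeing the data, so they describe the values and are not an independent check. Replicate 1 also had the highest score for 76 cytosolic ribosomal protein genes (0.41) and for 77 nuclear genes of respiratory complexes I to V (0.29), and 1.26% of its named counts fell on cytosolic ribosomal genes, against 0.850% to 0.989% in the other mice.

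**Figure D3:**
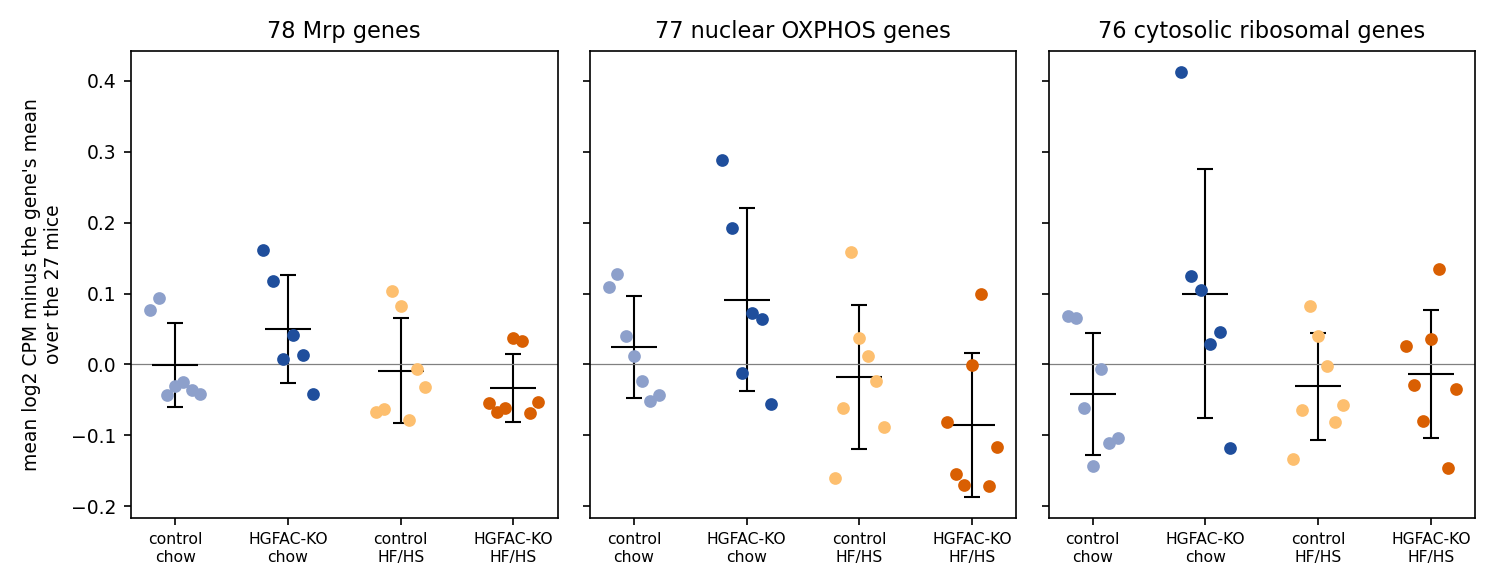
Score of each mouse (points; y axis, mean log2 CPM minus each gene's mean over the 27 mice) by genotype and diet for the Mrp genes and for both comparison lists, with group mean and SD as black bars. In the left panel the groups overlap, and the 2 highest points, 0.16 and 0.12, are both HGFAC-KO mice on chow.

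Without HGFAC on chow diet, most members were slightly higher and none passed the test. Of the 78 genes, 69 were higher and 9 lower than in littermate controls, with a median log2 fold change of 0.05 against 0.00 over all 13571 genes tested. No member was called by edgeR at an adjusted p of 0.05, where 0.00737% of all genes were (1 gene, *Hgfac*), nor by DESeq2 or limma voom. At an unadjusted p under 0.05 there were 5 members (6.41%), all higher, against 5.98% of all genes in either direction and 3.39% that were higher, and without HGFAC-KO chow replicates 1 and 2 there was no such member. These were *Mrps17* (log2 fold change 0.11), *Mrps16* (0.15), *Mrpl23* (0.21), *Mrpl52* (0.15) and *Mrpl55* (0.17), each with an adjusted p of 0.80. *Mrps16* and *Mrps17* encode small subunit proteins with bacterial counterparts, *Mrpl23* the counterpart of bacterial L23 near the exit of the peptide tunnel, *Mrpl52* a mitochondria-specific protein of the large subunit and *Mrpl55* another large subunit protein. Without HGFAC-KO chow replicate 1 the values of *Mrpl23*, *Mrpl52* and *Mrpl55* were 0.13, 0.09 and 0.11.
*Mrpl23* had the largest difference. Its lowest, median and highest levels were 9.68, 11.2 and 12.9 CPM in controls and 11.2, 12.4 and 16.3 CPM without HGFAC (p = 0.0583, exact permutation test over mice, two-sided here and below). The genotypes overlapped, and 2 of 6 HGFAC-KO mice were above all 7 controls. *Mrps17* ran from 28.3 to 32.7 CPM (median 29.5) in controls, against 29.9 to 34.1 CPM (median 32.8) in HGFAC-KO mice (exact p = 0.0245), with 3 of 6 above all controls. Next by p came *Mrpl12* (0.11), *Mrpl58* (0.12), which encodes a peptidyl-tRNA hydrolase built into the large subunit, and *Mrps24* (0.10). Among the 9 lower members *Mrps22* had the largest difference (-0.07, unadjusted p = 0.149), and the others, among them *Mrpl48*, *Mrpl9*, *Mrpl46* and *Mrpl16*, were within 0.02 of 0.
The same direction was seen in both subunits, with 43 of 51 large subunit genes (median 0.04) and 25 of 26 small subunit genes (median 0.07) higher. It was also seen outside the mitochondrial ribosome, since all 76 cytosolic ribosomal protein genes were higher (median 0.15, none called) and 73 of 77 nuclear respiratory chain genes (median 0.08, none called). The size of the members' difference moved with HGFAC-KO chow replicates 1 and 2, the 2 mice with the highest member scores. Leaving out the highest mice of 1 group lowers its level by construction, and the high-scoring control chow replicates 1 and 2 were kept. Without HGFAC-KO chow replicate 1, 58 members were higher and the median was 0.03. Without HGFAC-KO chow replicates 1 and 2 together, 42 were higher and 36 lower and the median was 0.0046. Under that choice 72 of 76 cytosolic ribosomal genes were higher (median 0.06) and 41 of 77 respiratory chain genes lower (median -0.0025). With all mice, 8 of 8 Kupffer cell markers were lower (median -0.27, none called) with summed levels of 127 to 194 CPM against 136 to 290 CPM in controls, none of them at 0 throughout. Of 8 sinusoidal endothelial markers 7 were lower (median -0.21, none called), with sums of 162 to 259 CPM against 190 to 310 CPM in controls. Without HGFAC-KO chow replicates 1 and 2 all 8 of each list were lower, with medians of -0.15 and -0.16. The 10 hepatocyte markers summed to 96230 to 106900 CPM, against 84120 to 97500 CPM in controls. Without HGFAC-KO chow replicates 1 and 2, 4 of these 10 were higher and 6 lower. The part of any of these lists in the result was not tested.

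On HF/HS diet no member passed the test between genotypes either. There 26 members were higher and 52 lower in HGFAC-KO mice, the median log2 fold change was -0.03 against 0.00 over 13544 genes, and none was called by edgeR, DESeq2 or limma voom, beside 0.0148% of all genes (2 genes). At an unadjusted p under 0.05 there were 3 members (3.85%), against 9.64% of all genes. *Mrpl32*, the gene with overlapping NRF1 cores above, which encodes a large subunit protein processed by a mitochondrial protease before assembly, ran from 16.6 to 18.7 CPM (median 17.6) in controls, against 14.3 to 17.3 CPM (median 15.96) in the HGFAC-KO group. Its log2 fold change was -0.15 (SE 0.05, adjusted p = 0.44 from edgeR, exact permutation p = 0.00408), and in 6 of 7 HGFAC-KO mice the level was under that of each control. *Mrpl9* ran from 40.9 to 48.8 CPM (median 42.2) in controls, against 35.5 to 42.7 CPM (median 39.3) in the HGFAC-KO group (log2 fold change -0.14, adjusted p = 0.45 from edgeR, exact permutation p = 0.00699), again with 6 of 7 below all controls. *Mrps2*, a small subunit gene, went the other way, from 45.8 to 61.5 CPM (median 51.97) in controls, against 51.2 to 69.7 CPM (median 58.03) in the HGFAC-KO group (log2 fold change 0.18, adjusted p = 0.48 from edgeR), and the groups overlapped. Next by p were *Mrps7* (-0.11), *Mrps18c* (-0.11), *Mrps6* (0.15), *Mrpl27* (-0.14) and *Mrpl52* (-0.12). Exons of *Mrpl9* overlap those of *Oaz3* on the other strand by 157 bases, so its reads may include those of its neighbour where counting ignored strand.
By subunit, 36 of 51 large subunit genes (median -0.04) and 15 of 26 small subunit genes (median -0.01) were lower. Of the respiratory chain genes 73 of 77 were lower (median -0.07, none called), whereas 51 of 76 cytosolic ribosomal genes were higher (median 0.02, none called). Single mice moved the members' values. Without control HF/HS replicate 3, 38 members were higher and the median was -0.0023, and over all fits with 1 mouse left out between 19 and 38 were higher and the median ran from -0.042 to -0.0023. Sinusoidal endothelial markers were lower in 7 of 8 here too (median -0.17, none called), with sums of 215 to 315 CPM against 226 to 370 CPM in controls. The 10 hepatocyte markers summed to 94830 to 120700 CPM, against 82520 to 102800 CPM in controls. The part of either list in the result was not tested. This comparison shares no mice with the one on chow.

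In control mice the HF/HS diet changed 10.5% of the 13525 genes tested (1424 genes), and no member among them. Of the members, 37 were higher and 41 lower, with a median log2 fold change of -0.0037, against 0.0036 over all genes. With single mice left out, the number higher ran from 26 (without control HF/HS replicate 3, median -0.03) to 47 (without control HF/HS replicate 5, median 0.018). The largest difference in either direction was 0.17. At an unadjusted p under 0.05 there were 10 members (12.8%), 5 higher and 5 lower, against 25.4% of all genes. Limma voom called none and DESeq2 called *Mrpl48*, *Mrpl9* and *Mrpl15*, which were the 3 nearest to the threshold with edgeR.
*Mrpl48*, a mitochondria-specific large subunit gene, ran from 19.9 to 21.9 CPM (median 20.6) on chow and from 21.3 to 24.02 CPM (median 23.2) on HF/HS. Its log2 fold change was 0.14 (SE 0.04, adjusted p = 0.0545 from edgeR, exact permutation p = 0.00291), with 5 of 7 HF/HS mice above all chow mice. *Mrpl9* was on HF/HS above all 7 chow mice in 6 of 7 mice, at a median of 42.2 against 39.0 CPM (log2 fold change 0.13, SE 0.05, adjusted p = 0.0763 from edgeR, exact permutation p = 0.00117). *Mrpl15*, the counterpart of bacterial L15, ran from 64.0 to 77.4 CPM (median 68.3) on chow and from 55.7 to 69.8 CPM (median 61.3) on HF/HS (log2 fold change -0.17, SE 0.05, adjusted p = 0.0613 from edgeR, exact permutation p = 0.00991), with 6 of 7 HF/HS mice below all chow mice. Thus 2 of the 3 were higher and 1 lower on the diet. The other members at this level were *Mrpl52* (0.12), *Mrpl1* (0.11) and *Mrps25* (0.13), which were higher, and *Mrps36* (-0.16), *Mrps6* (-0.17), *Mrps27* (-0.12) and *Mrpl38* (-0.12), which were lower. *Mrpl48* passed the threshold without control HF/HS replicate 1 and *Mrpl15* without control HF/HS replicate 4. Exons of *Mrpl48* overlap those of *Rab6a* on the other strand by 708 bases.
Markers of several cell types passed the test in control mice on HF/HS as well. The lymphocyte marker *Cd4* rose by 1.6 on the log2 scale (adjusted p = 0.000273 by edgeR), and 5 of the 7 lymphocyte markers tested were higher. Levels were low, the 8 listed summing to 1.93 to 5.54 CPM on chow and 4.04 to 6.28 CPM on HF/HS. The neutrophil marker *S100a8* (1.62) and the stellate cell marker *Ecm1* (0.28) rose. The 6 listed neutrophil markers summed to 1.97 to 3.47 CPM on chow and 2.48 to 10.1 CPM on HF/HS. The stellate cell marker *Lrat* (-0.60) and the erythroid markers *Slc4a1* (-1.32) and *Hba-a2* (-1.02) fell. Of the hepatocyte markers *Apoa1* (0.39) rose, and *Ass1* (-0.59) and *Tat* (-0.51, a call lost in 12 of 14 fits with 1 mouse left out) fell. Kupffer cell and sinusoidal endothelial markers were each higher in 7 of 8 (medians 0.20 and 0.30, none called). The part of these markers in the members' values was not tested.

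In HGFAC-KO mice, 2 members passed the test between diets. Neither did without chow replicates 1 and 2, a choice made after seeing the data. These 2 mice had the highest member scores, so leaving them out makes the members' fall smaller by construction, and the group smaller too. Of the 78 genes, 68 were lower and 10 higher on HF/HS, with a median log2 fold change of -0.09 against 0.0037 over 13613 genes tested. *Mrps36* and *Mrpl40* fell, which is 2.56% of the members, beside 5.89% of all genes called in either direction and 2.73% called lower. At an unadjusted p under 0.05 there were 21 members (26.9%), all lower, against 22.4% of all genes in either direction and 10.9% that were lower. Without chow replicates 1 and 2, 5 members were lower at this level (6.41%), against 8.39% of all genes. Of all genes, 6696 of 13613 were lower.
*Mrps36* had the largest difference of any member. Its lowest, median and highest levels were 8.47, 8.85 and 11.6 CPM in HGFAC-KO mice on chow and 6.48, 7.24 and 7.95 CPM on HF/HS. All 7 mice on HF/HS were below all 6 on chow. The log2 fold change was -0.40 (SE 0.09, adjusted p = 0.0146 by edgeR), which is a fall of 24.2%, and the exact permutation p was 0.000583, the smallest that these groups can give. In controls *Mrps36* ran from 7.95 to 9.72 CPM (median 8.98) on chow and from 6.98 to 8.56 CPM (median 8.26) on HF/HS, with overlap (log2 fold change -0.16, adjusted p = 0.159 from edgeR). As the subunit of the 2-oxoglutarate dehydrogenase complex, *Mrps36* is the one called member that does not encode a ribosomal protein. Its call was kept with each of the 13 mice left out in turn (log2 fold change from -0.43 to -0.34), but 2 of the 6 chow mice, replicates 1 and 2, stood at 11.1 and 11.6 CPM and the other 4 between 8.47 and 8.88 CPM. Without both, the log2 fold change was -0.27 with an adjusted p of 0.0529 from edgeR.
*Mrpl40*, a mitochondria-specific gene of the large subunit that faces the histone chaperone gene *Hira* head to head, ran from 15.2 to 18.3 CPM (median 16.3) on chow and from 13.3 to 15.1 CPM (median 14.5) on HF/HS, again with all 7 HF/HS mice below all 6 chow mice. Its log2 fold change was -0.21 (SE 0.06, adjusted p = 0.0492 from edgeR, exact permutation p = 0.000583), a fall of 13.4%. This call lies at the threshold and was lost in 11 of the 13 fits that left out 1 mouse, so that *Mrps36* alone was called without any 1 of HGFAC-KO chow replicates 1, 2, 4 and 5 or HF/HS replicates 1, 2, 3, 4, 6 and 7. Without chow replicate 6 *Mrpl41* joined *Mrps36*, without chow replicate 3 there were 3 calls and without HF/HS replicate 5 there were 4. In controls *Mrpl40* had medians of 15.7 CPM on chow and 13.7 CPM on HF/HS with overlap (log2 fold change -0.17, adjusted p = 0.204 from edgeR). No exon of another gene overlaps *Mrps36* or *Mrpl40* in the annotation.

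**Figure D4:**
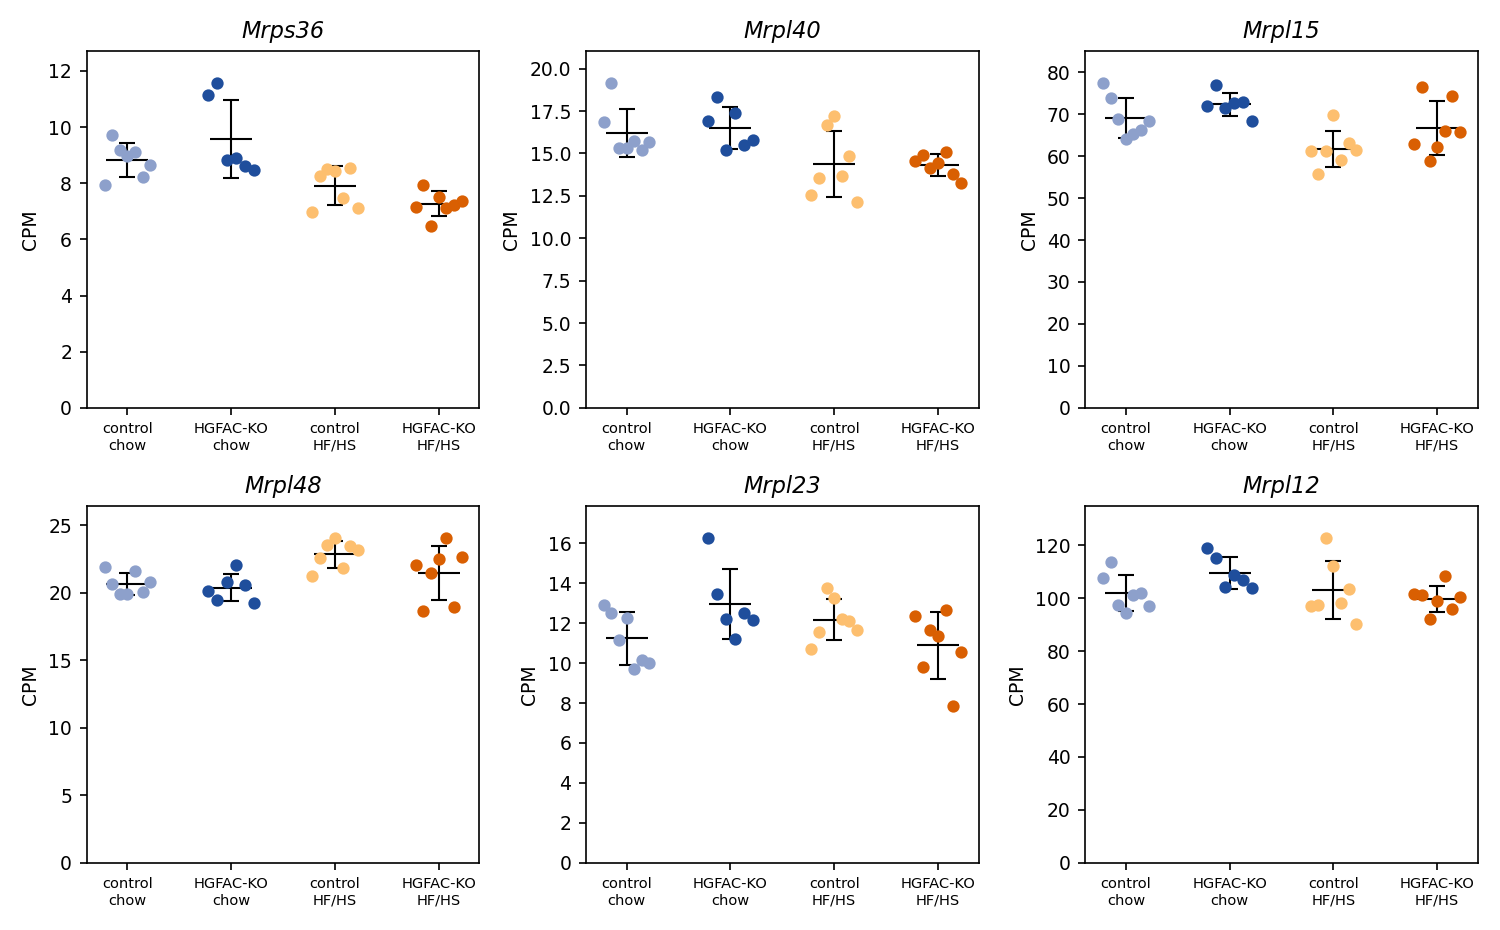
Level of 6 members in each mouse (points; y axis, CPM from 0) by genotype and diet, with group mean and SD as black bars. In HGFAC-KO mice all HF/HS points of *Mrps36* (6.48 to 7.95 CPM) and *Mrpl40* (13.3 to 15.1 CPM) lie below all chow points, whereas the groups of *Mrpl15*, *Mrpl48*, *Mrpl23* and *Mrpl12* overlap there.

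The members next to the threshold in HGFAC-KO mice were *Mrpl43* (log2 fold change -0.14, adjusted p = 0.0748), *Mrpl2* (-0.17, 0.0807), *Mrps24* (-0.15, 0.0862) and *Mrpl41* (-0.16, 0.0956), all from edgeR, and DESeq2 called these 4 beside *Mrps36* and *Mrpl40*. *Mrpl2* encodes the counterpart of bacterial L2 at the peptidyl transferase centre, and *Mrpl41* a mitochondria-specific protein. *Mrpl12*, the gene with the highest level per length, had medians of 107.6 CPM on chow and 100.4 CPM on HF/HS (log2 fold change -0.14, adjusted p = 0.131 from edgeR), with 6 of 7 HF/HS mice below all chow mice. *Mrpl14* followed (-0.20, adjusted p = 0.144). Among the 10 higher members *Mrpl1* had the largest difference (0.08, unadjusted p = 0.200), followed by *Mrpl48* (0.07) and *Mrpl3* (0.06), and none had an unadjusted p under 0.05. By subunit, estimates were below 0 for 42 of 51 large subunit genes (median -0.08, 1 called) and 25 of 26 small subunit genes (median -0.09, none called). By origin, they were below 0 for 42 of 48 genes with a bacterial counterpart (median -0.09) and 25 of 29 mitochondria-specific genes (median -0.08).
The same 2 mice moved this result. Without HGFAC-KO chow replicate 1, 60 members were lower and the median was -0.07, and without replicates 1 and 2 together 56 were lower, the median was -0.04 and no member was called. The comparison shares the HGFAC-KO mice on chow with the genotype comparison on chow, so the 69 higher members there and the 68 lower members here are not independent of each other. In the same mice, 76 of 77 respiratory chain genes were lower (median -0.19) and 3 of them fell, *Ndufv1* (-0.20) and *Ndufb9* (-0.25) of complex I and *Cox6a1* (-0.28) of complex IV, calls that were lost in 7, 10 and 9 of the 13 fits with 1 mouse left out, in that order, and all without replicates 1 and 2. Of the cytosolic ribosomal genes 74 of 76 were lower (median -0.12, none called). Without replicates 1 and 2 these counts were 73 of 77 (median -0.11) and 58 of 76 (median -0.03). In control mice, 63 of 77 respiratory chain genes were lower on HF/HS (median -0.05, none called) and 45 of 76 cytosolic ribosomal genes higher (median 0.01, none called). Of 8 Kupffer cell markers, 4 rose (*Cd68*, *Clec4f*, *Cd5l* and *Adgre1*), and the 8 summed to 127 to 194 CPM on chow and 166 to 292 CPM on HF/HS. Of 8 sinusoidal endothelial markers, 2 rose (*Stab2* and *Dnase1l3*), with sums of 162 to 259 and 215 to 315 CPM. Of these 6 markers, *Cd68* and *Clec4f* also passed without replicates 1 and 2, and the calls of *Adgre1* and *Dnase1l3* were lost in 8 and 7 of the 13 fits with 1 mouse left out. No marker of either list was at 0 throughout a group. Of 7 lymphocyte markers tested all were higher, and *Cd4* (1.57, adjusted p = 0.000724) and *Cd3d* (1.22, adjusted p = 0.0422, lost without replicates 1 and 2 and in 6 of the 7 fits with 1 mouse left out that tested it), both by edgeR, passed, with sums of 2.34 to 4.35 CPM on chow and 4.79 to 5.62 CPM on HF/HS over the 8 listed. Of 10 hepatocyte markers *Ass1* (-0.54, adjusted p = 0.00611) and *Tat* (-0.75, adjusted p = 0.0122 by edgeR) fell, with sums of 96230 to 106900 and 94830 to 120700 CPM. None was called in 4 other lists. All 3 neutrophil markers tested were higher (median 0.98, or 1.30 without replicates 1 and 2), the 6 listed summing to 1.58 to 4.198 CPM on chow, with *Ly6g* at 0 throughout, and 2.75 to 8.27 CPM on HF/HS. Stellate cell markers were higher in 7 of 8 (median 0.24, sums of 206 to 416 and 284 to 463 CPM), cholangiocyte markers lower in 6 of 6 (median -0.18, sums of 105 to 148 and 109 to 123 CPM) and erythroid markers lower in 5 of 5 (median -0.58, sums of 171 to 287 and 128 to 403 CPM). The part of these markers in the members' values was not tested.

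**Figure D5:**
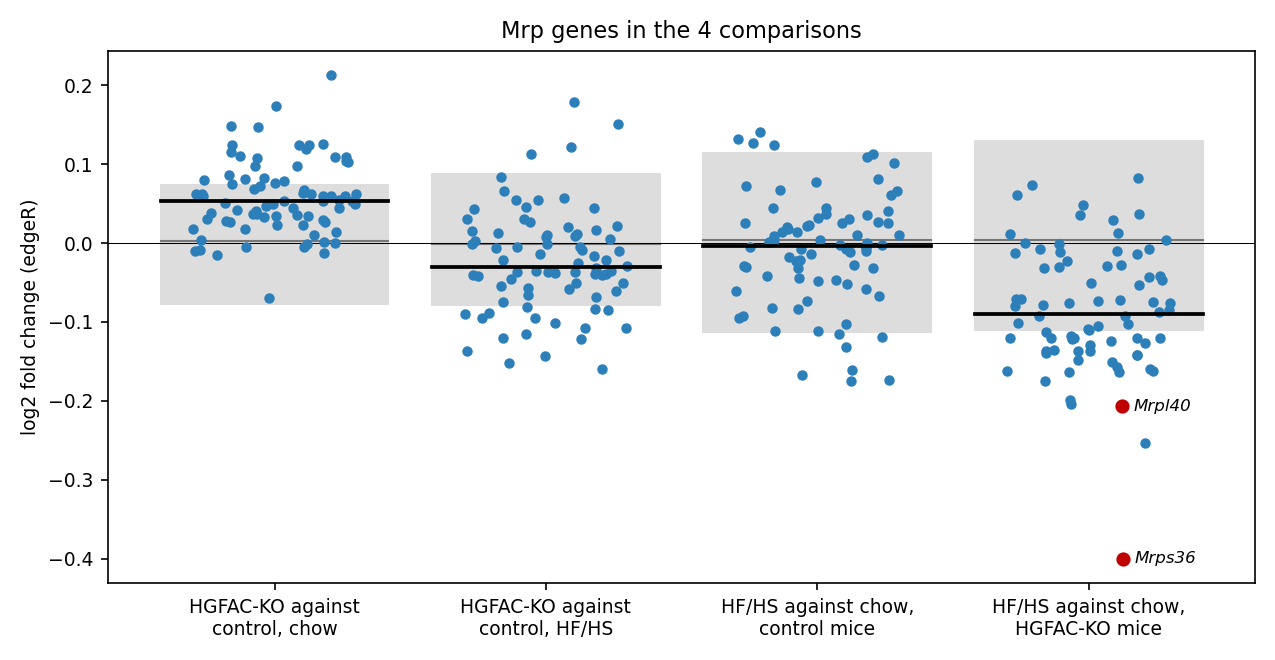
Log2 fold change (y axis, edgeR) of each of the 78 genes (points, spread sideways for view) in the 4 comparisons (x axis), with the members' median as a black line, the span between the quartiles of all genes tested as a grey box and their median as a grey line; red points passed an adjusted p of 0.05. The members' medians are 0.05, -0.03, -0.0037 and -0.09 from left to right, and the called members are *Mrpl40* and *Mrps36* in the rightmost comparison.

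Whether the genotype effect differed between diets was put to an interaction test with the 27 mice in 1 fit. No gene of 13932 passed (0% of all genes and 0 members, also with DESeq2 and limma voom). The estimates, coded as the genotype effect on HF/HS minus that on chow, were below 0 for 65 members and above 0 for 13, with a median of -0.07 against 0.0042 over all genes. At an unadjusted p under 0.05 there were 7 members (8.97%), all below 0, against 3.63% of all genes in either direction and 1.89% that were below 0. The 4 with the smallest p were *Mrpl52* (-0.26), *Mrpl23* (-0.37), *Mrpl32* (-0.19) and *Mrps36* (-0.24), each with an adjusted p of 0.98 from edgeR. *Mrpl23*, the largest of these, was higher by 0.21 in HGFAC-KO mice on chow and lower by 0.16 on HF/HS, on levels that ran from 7.83 to 12.7 CPM on HF/HS without HGFAC (median 11.3), against 10.7 to 13.7 CPM in controls (median 12.1). Without HGFAC-KO chow replicates 1 and 2, 51 estimates were below 0, the median was -0.03 and 2 members had an unadjusted p under 0.05, 1 in each direction. Estimates were also below 0 for 75 of 77 respiratory chain genes (median -0.15) and 74 of 76 cytosolic ribosomal genes (median -0.13), and above 0 for 8 of 8 Kupffer cell markers (median 0.33), whose part in the members' values was not tested. Without HGFAC-KO chow replicates 1 and 2 these were 70 of 77 (median -0.06), 57 of 76 (median -0.03) and 8 of 8 (median 0.21). The difference between the diet effects on *Mrps36* in HGFAC-KO and control mice is this same term. Over all alternatives and left-out mice it ran from -0.27 to -0.099. The call of *Mrps36* in HGFAC-KO mice alone therefore does not show a difference between genotypes.

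The other genes of mitochondrial translation were counted in the same way. The 5 mitoribosomal genes with other names (*Dap3*, *Chchd1*, *Ptcd3*, *Aurkaip1* and *Gadd45gip1*) were higher in 5 of 5 in HGFAC-KO mice on chow (median 0.07) and lower in 4 of 5 in HGFAC-KO mice on HF/HS (median -0.04), both against controls. On HF/HS against chow, 3 of 5 were lower in controls (median -0.0024) and 4 of 5 in HGFAC-KO mice (median -0.11), with none called in any of these. Without HGFAC-KO chow replicates 1 and 2 the medians were -0.0015 on chow between genotypes and -0.02 between diets. *Dap3*, a small subunit GTP-binding protein gene, had the smallest p of these between genotypes on chow (0.13) and between diets in HGFAC-KO mice (-0.18). Of 26 assembly factors and rRNA modifiers, 18 were higher without HGFAC on chow (median 0.05) and 18 on HF/HS (median 0.04), none called. On HF/HS against chow, 17 were lower in controls (median -0.07) and 18 in HGFAC-KO mice (median -0.07, none called). Without HGFAC-KO chow replicates 1 and 2 the median was 0.02 on chow between genotypes and -0.01 between diets. In control mice 1 of the 26 fell on HF/HS, *Mpv17l2*, an assembly factor of the large subunit (log2 fold change -0.26, adjusted p = 0.0165 from edgeR). No gene was called in any comparison among 17 translation factors and mRNA partners, 20 mitochondrial tRNA synthetases, 12 genes of mitochondrial DNA transcription and replication and the 13 mRNAs of mitochondrial DNA. Their medians in HGFAC-KO mice on HF/HS against chow were -0.05, -0.02, -0.04 and 0.01. Several of the 13 mitochondrial mRNAs share sequence with nuclear copies, and their counts are uncertain for that reason.
Among 14 regulators of mitochondrial biogenesis and 18 genes of mitochondrial protein quality and stress, 5 were called in controls and 2 in HGFAC-KO mice on HF/HS against chow, beside 10.5% and 5.89% of all genes. *Esrra*, which encodes the nuclear receptor ERRα that activates respiratory genes, fell on HF/HS in controls (-0.35, adjusted p = 0.00303) and in HGFAC-KO mice (-0.37, adjusted p = 0.0419), both from edgeR, the latter call lost in 11 of 13 fits with 1 mouse left out and at an adjusted p of 0.134 without HGFAC-KO chow replicates 1 and 2. *Ppara*, a receptor for fatty acid oxidation, rose in controls (0.42, adjusted p = 0.0162 from edgeR) and had a value of 0.46 in HGFAC-KO mice (adjusted p = 0.0527). *Lonp1*, the protease of the mitochondrial matrix, fell in both genotypes (-0.19 and -0.22, adjusted p = 0.0198 and 0.0152 from edgeR, the second being 0.0529 without HGFAC-KO chow replicates 1 and 2), and in controls so did *Trap1*, a mitochondrial chaperone (-0.13, adjusted p = 0.0389, lost in 12 of 14 fits with 1 mouse left out), and *Gdf15*, a hormone of mitochondrial stress (-0.96, adjusted p = 0.016).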

How the data were processed

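Liver mRNA of 27 mice was sequenced from stranded libraries. The authors aligned reads to GRCm38 (mm10) with HISAT2 and counted them with featureCounts 1.6.3, and they deposited raw counts per gene, without normalization, in 1 table. Whether counting used strand, and its annotation release, are not given in the sources used here. This bears on 28 members whose exons overlap those of a gene on the other strand and 8 that overlap one on the same strand. Of 27179 rows, 3886 name no gene (4.13% to 12.1% of a library's counts) and were left out. Rows of a symbol were summed.

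The test was that of edgeR 4.0.16 in R 4.3.3 (normalization by TMM, filterByExpr with minimum count 10 and minimum total 15, robust quasi-likelihood fit, Benjamini-Hochberg adjustment over all genes, threshold 0.05). Each comparison used its own 2 groups, and the interaction all 27 mice. Single members had two-sided exact permutation tests on log2 CPM with a prior count of 2. Alternatives were DESeq2 1.42.0, limma 3.58.1 voom, other normalizations and filters, a fit of all mice, a replicate block and leaving out mice. The fits were tested on simulated data. Lengths, neighbours and overlaps came from GENCODE release M21, and promoters from RefSeq. Libraries of a group were taken as separate mice and differed by more than sampling noise.

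The members and gene lists were chosen with earlier results of these data known, and lists are described and not tested. Named members were the 8 with the smallest p in each direction of a comparison (4 in the interaction), or some of them, the 5 highest and 5 lowest per length, the *Mrps18* paralogs, *Mrpl12* and *Mrps36*, and of other lists the smallest p and the called genes. *Mrpl37*, *Mrpl14* and *Mrps6* for their variation, *Mrpl20* for its rank and the genes named for their neighbours were chosen after their values were seen. *Mrpl58* is counted with the members and not among mitoribosomal genes with other names.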

Additional observations from a re-analysis of the deposited data

Results flagged for a closer look

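Of 112 sets of values (a named member, or the score, in 1 group of mice), 7 held a mouse that stood far from the others of its group by Dixon's gap test, against about 1 in 20 expected by chance. On chow, *Mrpl21* was 13.1 CPM in control replicate 7 against 14.96 to 16.3 in the other controls. *Mrpl40* was 19.1 CPM in control replicate 2 against 15.2 to 16.9, and *Mrps2* was 49.3 CPM in control replicate 3 against 56.9 to 61.5. *Mrpl49* was 34.8 CPM in HGFAC-KO replicate 1 against 29.5 to 31.3. On HF/HS, *Mrpl9* was 48.8 CPM in control replicate 3 against 40.9 to 42.5. *Mrpl3* was 18.1 CPM in HGFAC-KO replicate 1 against 19.4 to 20.3, and *Mrps24* was 49.95 CPM in HGFAC-KO replicate 5 against 43.9 to 45.9.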

How the results depend on the processing

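No member was called between genotypes on either diet, or in the interaction, under any of the alternatives. With single mice left out, the members' median ran from 0.030 to 0.071 between genotypes on chow, from -0.042 to -0.0023 on HF/HS, from -0.030 to 0.018 between diets in controls, from -0.11 to -0.069 between diets in HGFAC-KO mice and from -0.095 to -0.049 in the interaction. Without HGFAC-KO chow replicates 1 and 2 it was 0.0046, -0.04 and -0.03 on chow between genotypes, between diets in HGFAC-KO mice and in the interaction. The count of called members in control mice (0) became 3 with DESeq2, 1 with median-of-ratios factors and 1 with at least 10 counts in every library, and ran from 0 to 1 with single mice left out. In HGFAC-KO mice the count on HF/HS against chow (2) became 6 with DESeq2. It was 1 with limma voom, with upper-quartile factors, with no filter on low counts and with the replicate block. It ran from 1 to 4 with single mice left out. Without HGFAC-KO chow replicates 1 and 2, a choice made after seeing the data, it was 0. With all 27 mice in the fit *Mrpl40* lost its call (adjusted p = 0.0804 by edgeR) and *Mrpl43* gained one (0.043). Calls over all genes moved too, from 450 to 1401 in HGFAC-KO mice and from 774 to 1939 in controls under these alternatives. With single mice left out they ran from 467 to 950 and from 976 to 1780. The labels number the replicates without saying whether the numbers pair mice. Deviations from the group means correlated over 0.1 in at most 4 of 6 same-numbered pairs, those between diets in HGFAC-KO mice. The highest correlation was 0.37, between genotypes on chow. Such correlations cannot settle whether mice were paired or shared a batch, so calls are also given with the block. Under it the calls of *Mpv17l2*, *Trap1*, *Lonp1*, *Ecm1* and *Hba-a2* were lost in controls (adjusted p from 0.0571 to 0.123 by edgeR), and those of *Mrpl40*, *Lonp1*, *Cd5l*, *Adgre1*, *Cd3d*, *Ndufv1*, *Cox6a1* and *Ndufb9* in HGFAC-KO mice (0.0545 to 0.13). The median level was 14.5 CPM per kb over longest transcripts, and 39.1% of members (11.5% of all genes) held a core in the bases before the start alone. For 100 values of single genes, 1263 of 1398 values with a mouse left out and 888 of 945 under the other alternatives kept both direction and side of the threshold.

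Reversals were seen for members with values near 0. Between genotypes on chow, upper-quartile factors gave 0.00441 for *Mrpl45*, 0.00401 for *Mrpl35* and 0.0082 for *Mrpl49*, and leaving out HGFAC-KO chow replicates 1 and 2 gave 0.0032 for *Mrpl48* and 0.00089 for *Mrpl9*. With single mice left out, the values ran from -0.037 to 0.00092 for *Mrpl48*, from -0.033 to 0.00803 for *Mrpl9*, from -0.023 to 0.0077 for *Mrpl16*, from -0.038 to 0.024 for *Mrpl46*, from -0.032 to 0.017 for *Mrpl45*, from -0.032 to 0.022 for *Mrpl35* and from -0.039 to 0.014 for *Mrpl49*. Between diets in HGFAC-KO mice they ran from -0.00201 to 0.059 for *Mrpl19* and from -0.0089 to 0.033 for *Mrpl35*. The cause was not tested. With 6 or 7 mice a group, the median SE of a single member on chow was 0.06 on the log2 scale.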
